A study of Rattus norvegicus with 13 samples.

Results

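Transcripts of glucose uptake, glycolysis, glycogen turnover and the pentose phosphate pathway were measured in left ventricular tissue of 4 wild-type (WT) rats and 5 rats overexpressing the β3-adrenergic receptor (written ADBR3 in the labels). The 33 genes were picked by name and not by a measured value: every spot of the arrays that carried the symbol of a member was taken, which found 43 probes for 32 of them. Pgd, the gene of 6-phosphogluconate dehydrogenase, had no spot under that name. The array design carries 26115 gene names in all. Of the 43 probes, 41 probes of 31 genes were tested because at least 4 of the 9 rats showed them well above background, and for 38 of these all 9 rats did.

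All rats were male and 45 weeks old, and the RNA was hybridised to 13 Agilent arrays with a single dye, 6 of WT and 7 of overexpressing tissue. Hearts 1 and 2 of each group are 2 labelings of the RNA of 1 rat and were averaged as rat 1, while WT heart 5 and overexpressing heart 4 are repeat hybridizations of a rat that the labels do not name and were kept out of the group values. Rats are named by heart number. The promoter that drives the receptor, the cells that make it and the number of founder lines are not stated by the labels. For the Adrb3 probe 0 of 6 WT arrays and 1 of 7 overexpressing arrays were well above background, so it gives no check of the genotype labels, and whether it lies in the introduced sequence is unknown. All 10 markers of ventricular cardiomyocytes were above background, and the log2 of their summed signal was 11.52 to 11.86 in WT and 11.67 to 11.83 in overexpressing rats. Of 9 skeletal muscle markers 5 were above background, and Myh1, Myh2, Myh4 and Actn3 were not. Of 3 atrial markers 2 were above background, and Bmp10 was not. The log2 of the summed atrial signal was 5.18 to 6.29 in WT and 4.13 to 7.60 in overexpressing rats. For each of the 10 lists of cell type markers the ranges of the summed signals of the groups overlapped, and 0 markers passed the threshold. By sign, 7 of 7 detected fibroblast markers and 5 of 5 of smooth muscle and pericytes were higher in the overexpressing group, 6 of 7 endothelial and 4 of 4 lymphocyte markers were lower, and their part in the values below was not tested.

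Glucose enters the cardiomyocyte through facilitative transporters, is trapped as glucose 6-phosphate by hexokinase, and is then broken down by glycolysis, stored as glycogen or passed to the pentose phosphate pathway. Most steps have several gene products, and muscle tissue favours its own forms, such as Slc2a4, Hk2, Pfkm, Pgam2, Eno3 and Pygm, with Pfkfb2 and Ldhb as the forms of heart. The adult heart draws most of its energy from fatty acids, and a turn back to glucose and to fetal isoforms is a known feature of the overloaded heart.

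Eno1, Pfkfb2 and Pkm are among the members read by more than 1 probe, and each probe sees only 60 bases of a transcript. The first 30 bases of these probes follow, 5′ to 3′ as deposited and with no letter capitalised. The places given after them show that the probes of a gene read separate stretches.
Eno1 A_64_P039081: tcaagactccccccagtggtttacttgcaa
Eno1 A_64_P093037: aagtaaggcatggaccggagatccctggag
Eno1 A_64_P067525: tttaccacaacctgaagaatgtcgtcaaag
Pfkfb2 A_42_P820023: aatgtgctttttctaaatgttctttcatac
Pfkfb2 A_44_P344415: atccagaggaatttgcacttcgagatcaag
Pkm A_64_P094503: gccgtactggatgcctgggctgaggacgtt
Pkm A_64_P024077: cgtggaggcctcttataaatgtttagcagc
In build rn4, which the file headers name, the files place the Eno1 probes at chr5:167405465-167405524 (plus strand), chr5:167405206-167405265 (plus strand) and chr10:53300221-53300280 (minus strand), so the third lies on another chromosome than the first pair. The Pfkfb2 probes lie at chr13:43625535-43625594 (minus strand) and chr13:43636675-43636734 (minus strand). Those of Pkm lie at chr8:63507002-63507061 (plus strand) and chr8:63504373-63504432 (plus strand). No gene models of this build were used here, so the exon or UTR that each probe reads is not stated.

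Levels below are log2 processed signals scaled so that the 75th percentile of each array is 0, and differences are overexpressing minus WT on the same scale. A level serves to compare rats for 1 probe, not to rank probes or genes. No member differed between the groups at the threshold of a Benjamini-Hochberg adjusted p of 0.05 over all tested probes: 0 of 41 member probes passed, with the smallest adjusted p at 0.501 in limma, against 1 of 17587 probes in the whole table (0.00569%). Without the adjustment, 3 member probes were higher at p under 0.05, or 7.32% against 3.12% of all probes, and 0 were lower against 6.08% of all probes. In either direction this was 3 of 41, against 9.2% of all probes. Those 3 were 2 probes of Eno1 and a dim probe of Pfkfb2. The sign was positive for 20 and negative for 21 member probes, with a median difference of -0.0022 against -0.0094 over all probes. The split moved to 29 and 12 when arrays were scaled on their median, a change that also turned the probes of the whole table with p under 0.05 from 549 higher and 1069 lower into 1061 higher and 617 lower. In no member probe were the 4 WT rats fully apart from the 5 overexpressing rats, against 3.44% of all probes (1.23% higher and 2.21% lower).

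The members varied little between rats. Their median SD between rats of a group was 0.11, against 0.13 over all probes, and the median size of their differences was 0.053 against 0.080. The members and all probes were not matched for level, so whether members vary less than probes of like brightness was not tested. For 36 of the 41 probes the 95% interval of the difference lay within 1.5-fold in either direction, and for 29 it lay within 1.2-fold. The 5 wider intervals belonged to 1 probe of Pfkl, both probes of Pfkfb2 and 2 probes of Eno1. These are amounts in pieces of ventricle, in which fewer cells of a type and less RNA per cell cannot be told apart.

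**Figure D1:**
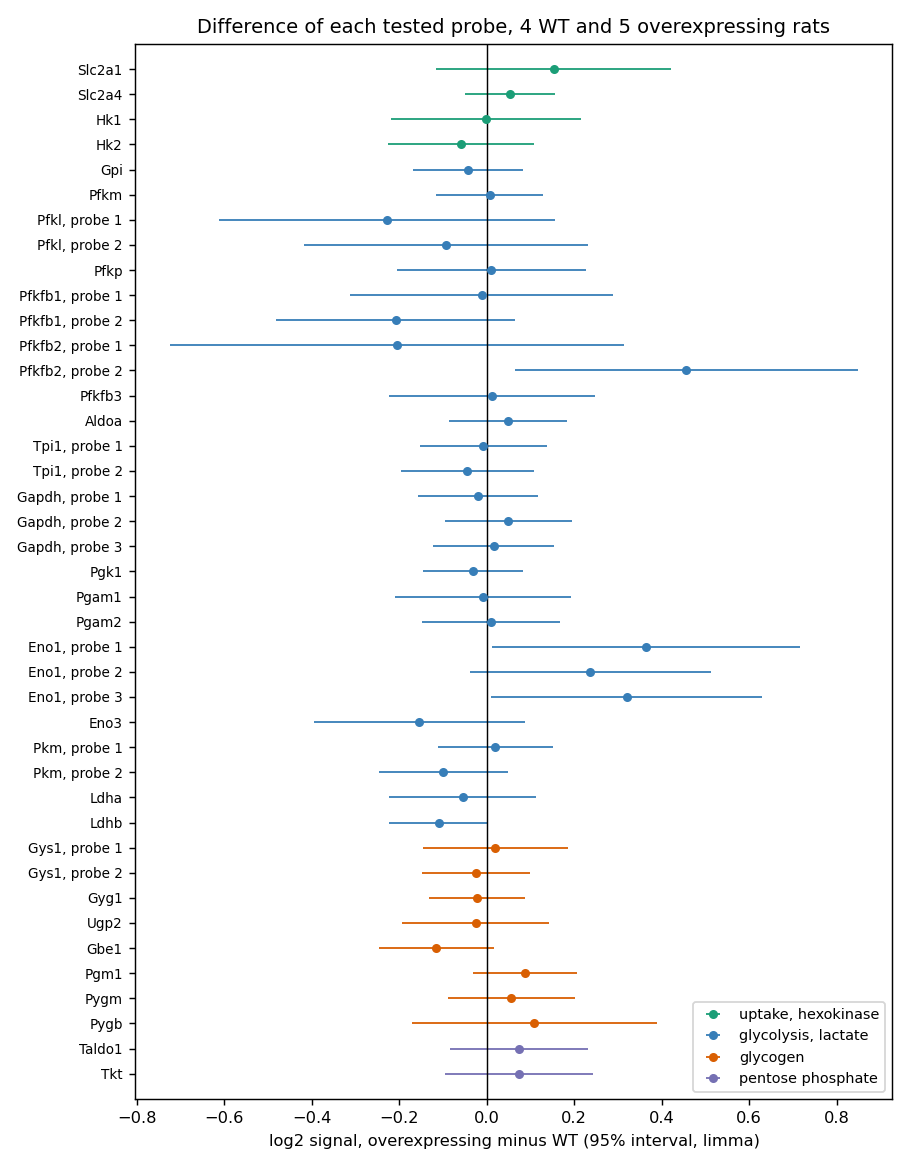
Difference in log2 signal between overexpressing and WT rats for each of the 41 tested probes (horizontal axis, points; bars are the 95% interval of the limma fit), ordered by step from uptake to the pentose phosphate pathway (colours). Most intervals cross 0 within a narrow band, and the largest positive differences belong to Pfkfb2 probe 2 (A_44_P344415, 0.46) and the 3 Eno1 probes (0.24 to 0.36).

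At the entry of glucose, both transporters were close between the groups. The level of Slc2a1, the transporter of basal uptake, was 0.34, 0.55, 0.54 and 0.96 in WT rats 1, 3, 4 and 6, and 0.87, 0.59, 0.86, 0.76 and 0.67 in overexpressing rats 1, 3, 5, 6 and 7. WT 6 was the highest rat and WT 1 the lowest, and all 5 overexpressing rats lay between them. For Slc2a1 limma gave a difference of 0.15 ± 0.12 (SE) and an adjusted p of 0.698, and the exact two-sided permutation test gave p = 0.278. The level of Slc2a4, the insulin-responsive transporter of muscle and fat, was 3.95, 3.87, 3.98 and 3.98 in the WT rats and 3.98, 3.98, 4.04, 3.96 and 4.02 in the overexpressing rats, a spread so small that the difference of 0.05 has a 95% interval of -0.05 to 0.16. WT 3 was the lowest rat and overexpressing 5 the highest.

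Hexokinase, which phosphorylates glucose, was represented by 2 genes. Hk1, the widely expressed form, read a level of 2.81, 2.81, 3.04 and 3.11 in the WT rats and 2.88, 2.87, 3.19, 2.95 and 2.82 in the overexpressing rats, and overexpressing 5 stood highest. Hk2, the insulin-regulated form of muscle, read -1.31, -1.14, -1.08 and -1.25 in the WT rats and -1.20, -1.16, -1.32, -1.42 and -1.17 in the overexpressing rats, and its lowest level was that of overexpressing 6. The differences were -0.0022 for Hk1 and -0.06 for Hk2, and the groups overlapped in both.

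In upper glycolysis, Gpi, the isomerase of glucose 6-phosphate, had levels of 4.30 to 4.40 in the WT rats and 4.21 to 4.40 in the overexpressing rats. Phosphofructokinase 1, the committed step, is built from 3 kinds of subunit. The muscle subunit Pfkm read 4.76, 4.68, 4.65 and 4.68 in the WT rats and 4.59, 4.76, 4.77, 4.67 and 4.71 in the overexpressing rats, with a difference of 0.01 and an interval of -0.12 to 0.13. The platelet subunit Pfkp read 1.84, 1.89, 1.77 and 1.64 in the WT rats and 1.85, 1.93, 1.74, 1.94 and 1.52 in the overexpressing rats, and overexpressing 7 was the lowest rat. The liver subunit Pfkl, by its brighter probe, read -1.61, -1.51, -1.12 and -0.91 in the WT rats and -1.65, -1.85, -1.47, -1.23 and -1.38 in the overexpressing rats. Pfkl varied more than the other subunits: overexpressing 3 was the lowest and WT 6 the highest of the 9 rats, and both Pfkl probes put these rats at the ends. The differences of the Pfkl probes were -0.23 and -0.09, each with an interval that held 0.

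The bifunctional enzymes that make and break fructose 2,6-bisphosphate, the activator of phosphofructokinase 1, included the 3 tested probes that were not detected in all 9 rats. The brighter probe of Pfkfb2, the heart form, read -2.44, -2.38, -2.11 and -2.80 in the WT rats and -2.22, -3.21, -3.01, -2.28 and -2.47 in the overexpressing rats, and overexpressing 3 and 5 were the lowest of all rats. The dimmer Pfkfb2 probe, A_44_P344415, read -5.31, -5.41, -4.55 and -5.12 in the WT rats and -4.35, -4.74, -4.86, -4.63 and -4.64 in the overexpressing rats, and here WT 4 stood among the overexpressing rats while the other WT rats were lower. For A_44_P344415 limma gave a difference of 0.46 ± 0.17 (SE) and an adjusted p of 0.501, and the exact two-sided permutation test gave p = 0.0714. The difference amounts to 1.37-fold. Only 2 of 6 WT arrays but 7 of 7 overexpressing arrays showed this Pfkfb2 probe well above background, so it entered the test mainly through the group in which it was higher, and neither its difference nor its place among the 3 probes above is given as support. Within the slides that held both groups, the same Pfkfb2 probe gave differences of 0.77 on slide 1, -0.08 on slide 3 and -0.91 on slide 4, where WT heart 5, a repeat hybridization, read -3.82. The overexpressing mean of slide 4 also holds a repeat hybridization, heart 4. Blocking on slide, in a fit of all 13 arrays with each repeat hybridization joined to the rat of the most similar array of its group, left -0.03. The pair of Pfkfb2 probes thus moved in opposite directions, -0.21 and 0.46.

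Pfkfb1, the form first described in liver and skeletal muscle, read -0.19, -0.28, 0.28 and 0.25 in the WT rats and -0.12, 0.22, -0.09, -0.08 and 0.08 in the overexpressing rats by its brighter probe, with WT 4 and 6 and overexpressing 3 at the high end. By the dimmer probe, A_64_P246032, Pfkfb1 read -4.01, -3.91, -3.63 and -3.63 in the WT rats and -3.94, -4.14, -4.18, -4.05 and -3.69 in the overexpressing rats. For that probe limma gave a difference of -0.21 ± 0.12 (SE) and an adjusted p of 0.608, and the exact two-sided permutation test gave p = 0.151. The difference of the brighter probe was -0.01. Pfkfb3, the inducible form, read -4.45, -4.68, -4.17 and -4.56 in the WT rats and -4.56, -4.58, -4.41, -4.33 and -4.38 in the overexpressing rats by the tested probe, which 4 of 6 WT and 7 of 7 overexpressing arrays detected. A second Pfkfb3 probe, detected on 2 WT arrays and 1 overexpressing array, was not tested.

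In the middle and lower steps of glycolysis up to the mutases, differences were small. Aldolase A (Aldoa) had levels of 5.46 to 5.69 in the WT rats and 5.62 to 5.74 in the overexpressing rats, a difference of 0.05. Triosephosphate isomerase (Tpi1) differed by -0.01 and -0.04 in its 2 probes. Gapdh, which makes the first NADH of the pathway and often serves as a loading control, differed by -0.02, 0.05 and 0.02 in 3 probes, all with intervals inside 1.2-fold. The level of phosphoglycerate kinase (Pgk1) was 6.72 to 6.88 in the WT rats and 6.75 to 6.86 in the overexpressing rats. Pgam1, the widespread phosphoglycerate mutase, read 5.41, 5.22, 5.50 and 5.54 in the WT rats and 5.40, 5.62, 5.40, 5.27 and 5.35 in the overexpressing rats. Pgam2, the muscle mutase, read 6.65, 6.51, 6.45 and 6.38 in the WT rats and 6.56, 6.57, 6.38, 6.46 and 6.56 in the overexpressing rats. In both mutases the difference was near 0 (-0.01 for Pgam1 and 0.01 for Pgam2) and the overexpressing rats lay among the WT rats or just beyond 1 of their ends.

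Enolase, which turns 2-phosphoglycerate into phosphoenolpyruvate, gave a pattern shared by all 3 probes of 1 gene, Eno1. Probe A_64_P039081 of Eno1, the widely expressed α form, read a level of 6.38, 6.14, 6.53 and 6.37 in WT rats 1, 3, 4 and 6, and 6.42, 6.35, 6.99, 6.88 and 6.96 in overexpressing rats 1, 3, 5, 6 and 7. Overexpressing 5, 6 and 7 stood above every other rat, whereas overexpressing 1 and 3 lay inside the WT range. Probe A_64_P093037 put the same 3 rats on top, with levels of 4.52, 4.43, 4.46 and 4.49 in the WT rats and 4.44, 4.43, 4.87, 4.98 and 4.85 in the overexpressing rats. Probe A_64_P067525 did so as well, with levels of 0.55, 0.37, 0.73 and 0.64 in the WT rats and 0.62, 0.60, 1.16, 1.08 and 1.01 in the overexpressing rats. Overexpressing 1 lay among the WT rats in all 3 probes and overexpressing 3 did in 2 of them, being just below the lowest WT rat by A_64_P093037, so the groups overlapped in each probe.

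The Eno1 differences of 0.36, 0.24 and 0.32 did not pass the threshold. For A_64_P067525, the Eno1 probe with the smallest p, limma gave a difference of 0.32 ± 0.14 (SE) and an adjusted p of 0.537, and the exact two-sided permutation test gave p = 0.0952. The other Eno1 probes had limma adjusted p values of 0.537 (A_64_P039081) and 0.576 (A_64_P093037). Overexpressing 5 and 6 lay on slide 4 and overexpressing 7 on slide 3. Slide 4 also held both repeat hybridizations, and there A_64_P039081 read 6.47 for WT heart 5 and 6.48 for overexpressing heart 4, below the 3 high rats on that probe. Within slides, this Eno1 probe differed by -0.04 on slide 1, 0.43 on slide 3 and 0.31 on slide 4. On slide 4 the WT array is a repeat hybridization, and the overexpressing mean holds heart 4, also a repeat, beside hearts 5 and 6. Each of these slides had a single array in at least 1 group. Blocking on slide, in the same kind of fit of all 13 arrays as for Pfkfb2, left Eno1 differences of 0.17, 0.14 and 0.16. That fit holds the repeat hybridizations, so the change from the values of 9 rats is not that of the block alone. In 0 of the 10 marker lists did overexpressing 5, 6 and 7 have the highest summed signals. The brightest markers weigh most in these sums, and the part of cell content in the Eno1 values was not tested. The third probe is placed on chromosome 10 while the others lie on chromosome 5, so it may read a near copy of the gene, which was not tested.

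**Figure D2:**
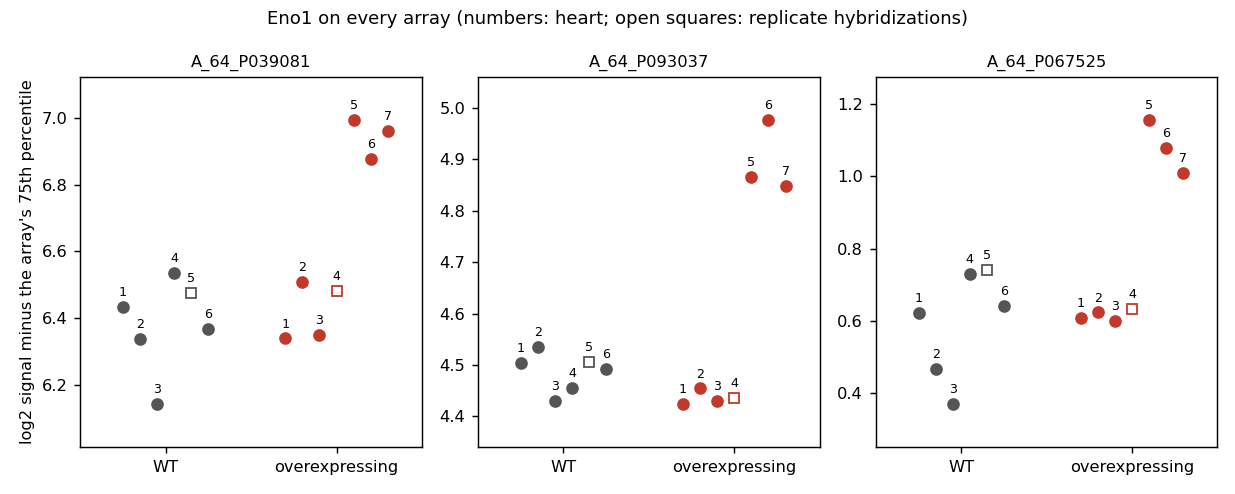
Level of Eno1 on every array by its 3 probes (log2 signal with the 75th percentile of an array at 0, vertical axes), in WT (grey) and overexpressing (red) tissue. Numbers are hearts, hearts 1 and 2 are labelings of 1 rat, and open squares are the repeat hybridizations; hearts 5, 6 and 7 of the overexpressing group are the highest arrays in each panel.

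Eno3, the muscle β form of enolase, read 5.82, 5.98, 6.40 and 6.03 in the WT rats and 5.88, 6.02, 5.92, 5.85 and 5.86 in the overexpressing rats. WT 4 was the highest rat and the overexpressing rats filled a narrow range, with a difference of -0.15 and an interval of -0.39 to 0.09. The difference of Eno3 and Eno1 within a rat averaged -0.30 ± 0.20 in the 4 WT rats and -0.82 ± 0.35 in the 5 overexpressing rats (mean ± SD). That shift of -0.52 in the direction of Eno1 was larger than the SD within groups of 0.30. Overexpressing 5, 6 and 7 were the lowest rats, at -1.07, -1.03 and -1.10, while overexpressing 1 and 3 were at -0.54 and -0.33. The shift also holds the Eno3 difference of -0.15. Eno1 stands here for its brightest probe, A_64_P039081, which had the largest difference of the Eno1 probes. The lowest WT rat was at -0.56. No test was run on these isoform differences, and the sign of each reflects the brightness of the probes as well as the amounts.

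At the exit of glycolysis, the level of pyruvate kinase (Pkm) was 2.77 to 3.00 in the WT rats and 2.86 to 3.00 in the overexpressing rats by probe A_64_P094503. By probe A_64_P024077 the Pkm level was 1.54, 1.32, 1.45 and 1.61 in the WT rats and 1.42, 1.42, 1.40, 1.29 and 1.37 in the overexpressing rats, and WT 3 was the only WT rat inside the range of the overexpressing rats. For A_64_P024077 limma gave a difference of -0.10 ± 0.07 (SE) and an adjusted p of 0.643, and the exact two-sided permutation test gave p = 0.151, while the other Pkm probe differed by 0.02. Pkm yields the splice forms M1 and M2, and the files do not say which of them either probe reads.

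The lactate dehydrogenase subunits were the member pair with the smallest spread in their difference. Ldhb, the heart subunit, read 8.25, 8.12, 8.16 and 8.19 in the WT rats and 8.08, 8.15, 8.01, 8.02 and 8.08 in the overexpressing rats. The WT rats were higher than the overexpressing rats except that overexpressing 3 exceeded WT 3. For Ldhb limma gave a difference of -0.11 ± 0.05 (SE) and an adjusted p of 0.547, and the exact two-sided permutation test gave p = 0.0238. The difference amounts to 1.08-fold. Over the alternatives the Ldhb difference ran from -0.13 to -0.03, the last with normexp and quantile normalization, and its limma adjusted p from 0.474 to 0.951. Within slides 1, 3 and 4 the Ldhb difference was -0.08, -0.07 and -0.06. Each of these slides had a single array in 1 or both groups. On slide 4 the WT array is a repeat hybridization, and the overexpressing mean holds heart 4, also a repeat. Heart 4 read 8.21, against 8.01 and 8.02 for overexpressing hearts 5 and 6. Ldha, the subunit of skeletal muscle, read 6.95, 6.67, 6.90 and 6.87 in the WT rats and 6.85, 6.89, 6.72, 6.65 and 6.84 in the overexpressing rats, a difference of -0.06. The Ldhb minus Ldha difference averaged 1.33 ± 0.08 in the 4 WT rats and 1.28 ± 0.05 in the 5 overexpressing rats (mean ± SD), a shift of -0.05 that was smaller than the SD within groups of 0.07.

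**Figure D3:**
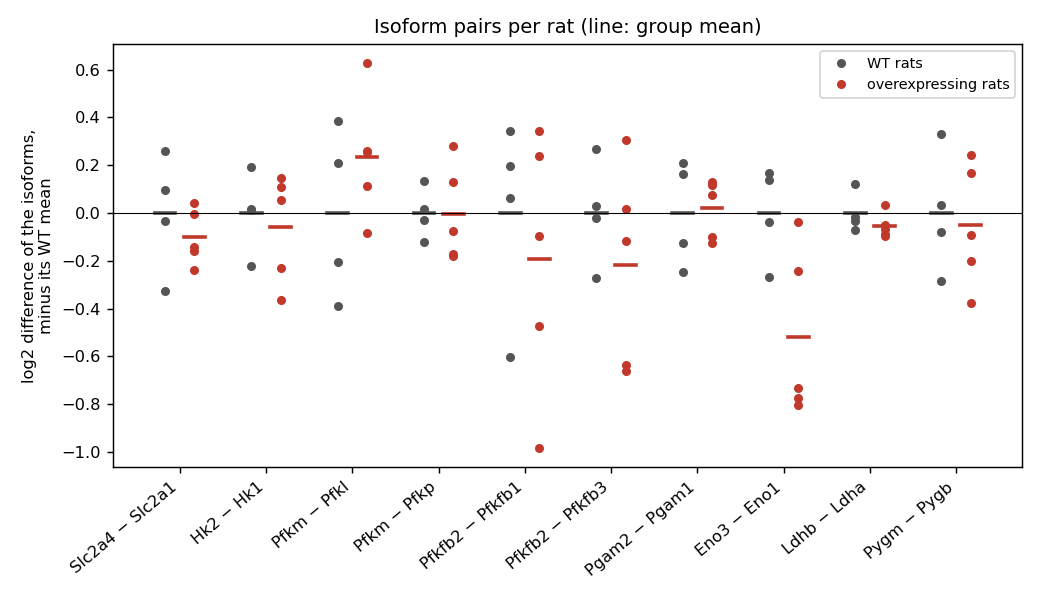
Difference in log2 signal between 2 isoforms of a step in each rat, with the WT mean of that difference subtracted (vertical axis), for 10 pairs; points are rats and lines are group means. The groups overlap in all 10 pairs, and only in the enolase pair is the shift of the mean larger than the SD within groups.

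In all 10 isoform pairs the 2 groups overlapped, and in 9 of them the shift of the mean was smaller than the SD within groups. Outside enolase the shifts ran from -0.22, for Pfkfb2 against Pfkfb3, to 0.23, for Pfkm against Pfkl. Slc2a4 against Slc2a1 shifted by -0.10 and Hk2 against Hk1 by -0.06. These shifts are of a size that single rats exceeded in each of the pairs: the Pfkm minus Pfkl difference, for example, ran from 5.59 to 6.37 within the WT rats. No shift from the muscle to the widespread form was seen at a size beyond the rat-to-rat spread in transporters, hexokinases, phosphofructokinase subunits or mutases.

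The glycogen genes showed 4 probes higher and 4 lower, with differences between -0.11 and 0.11. On the synthetic side, glycogen synthase Gys1 differed by 0.02 and -0.02 in its probes. Glycogenin (Gyg1), the protein primer of the granule, differed by -0.02, and Ugp2, which makes UDP-glucose, by -0.03. The level of the branching enzyme Gbe1 was -1.39, -1.34, -1.56 and -1.48 in the WT rats and -1.48, -1.62, -1.56, -1.59 and -1.53 in the overexpressing rats. WT 1 and 3 were the highest rats and WT 4 lay among the overexpressing rats. For Gbe1 limma gave a difference of -0.11 ± 0.06 (SE) and an adjusted p of 0.57, and the exact two-sided permutation test gave p = 0.0635. The level of phosphoglucomutase Pgm1, which links glucose 1-phosphate and glucose 6-phosphate, was 1.10, 0.98, 1.00 and 1.11 in the WT rats and 1.05, 1.13, 1.16, 1.20 and 1.13 in the overexpressing rats. WT 3 and 4 were lowest, and WT 1 and 6 lay among the overexpressing rats. For Pgm1 limma gave a difference of 0.09 ± 0.05 (SE) and an adjusted p of 0.618, and the exact two-sided permutation test gave p = 0.0952.

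On the side of breakdown, the muscle phosphorylase Pygm read 3.74, 3.54, 3.56 and 3.60 in the WT rats and 3.64, 3.79, 3.65, 3.70 and 3.55 in the overexpressing rats, a difference of 0.06. The brain form Pygb read 2.25, 2.66, 2.48 and 2.41 in the WT rats and 2.31, 2.38, 2.87, 2.63 and 2.59 in the overexpressing rats, and overexpressing 5 was its highest rat, with a difference of 0.11. Phka1, a regulatory subunit of the phosphorylase kinase that switches phosphorylase on, went untested because 1 of 6 WT arrays and no overexpressing array detected its probe.

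**Figure D4:**
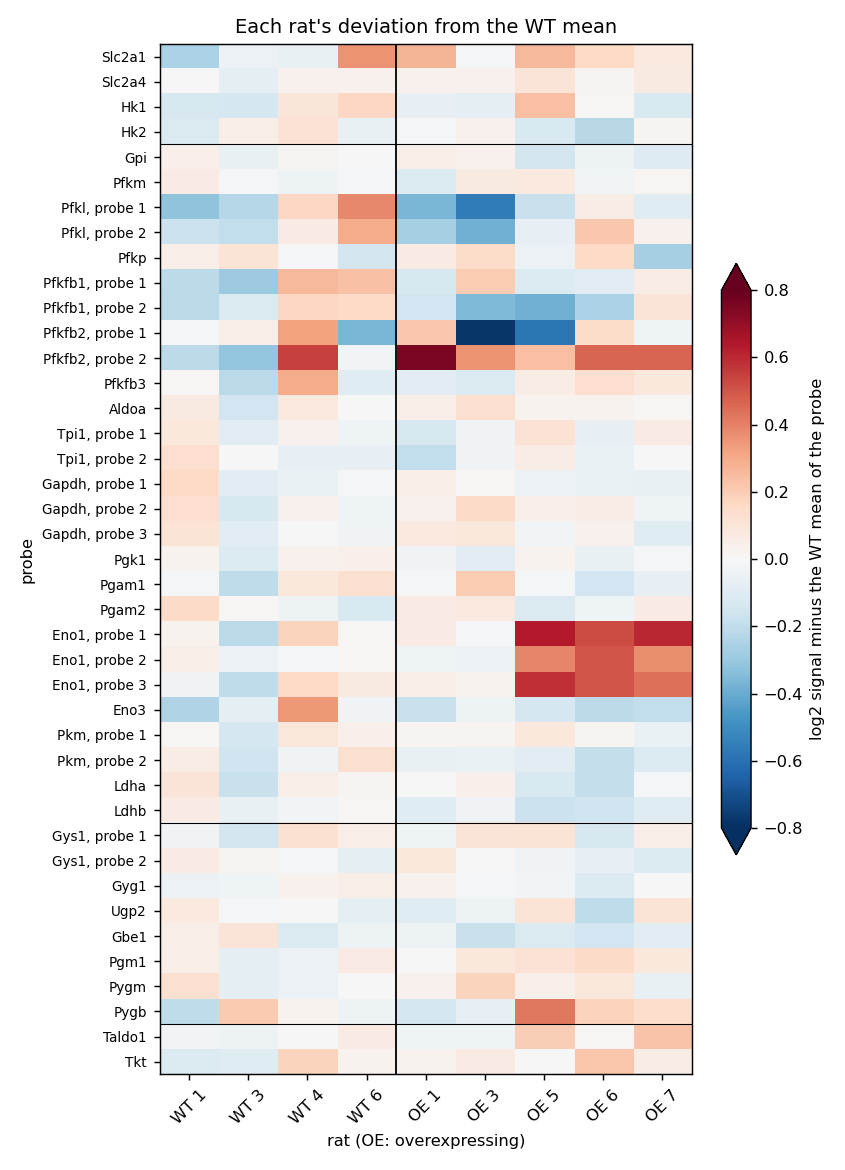
Deviation of each rat's log2 signal from the WT mean of the probe (colour, red higher and blue lower, ends of the scale at 0.8) for the 41 tested probes (rows) and 9 rats (columns, OE for overexpressing). The 3 Eno1 rows are darkest red in overexpressing 5, 6 and 7, and the Pfkfb and Pfkl rows vary among rats of the same group.

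In the pentose phosphate pathway, which supplies NADPH and ribose, transaldolase (Taldo1) had levels of 2.35 to 2.45 in the WT rats and 2.36 to 2.62 in the overexpressing rats and transketolase (Tkt) had levels of 3.53 to 3.82 in the WT rats and 3.64 to 3.86 in the overexpressing rats. Their differences were 0.07 and 0.07, with adjusted p values in limma of 0.754 and 0.773. No value is given for Pgd, an oxidative enzyme of the pathway.

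Several probes of 1 gene bear on how firmly a member can be read. Of the 8 genes with more than 1 tested probe, 4 (Pfkl, Pfkfb1, Tpi1 and Eno1) had probes of the same sign and 4 (Pfkfb2, Gapdh, Pkm and Gys1) had probes of differing sign. Except for Pfkfb2, the probes of differing sign lay at most 0.12 apart. Outside the 8 genes with tests given above, the remaining 23 genes with 28 tested probes had differences of -0.23 to 0.11, and none had an unadjusted p in limma below 0.184.

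Other genes of the same pathways, 59 by list, were read by 55 tested probes of 44 genes. None passed the threshold in limma (smallest adjusted p 0.383), with 34 probes higher and 21 lower and a median difference of 0.02. That is 61.8% higher, against 46.5% of all probes. Without the adjustment 5 probes were higher (9.09% against 3.12% of all probes) and 2 lower (3.64% against 6.08%) at p under 0.05, and 33.9% of all probes with such a p were higher. That share of all probes was 63.2% with arrays scaled on their median, so the split over the whole table turns with the scaling. The split of the 55 probes under that scaling is not given here. Among transporters, Slc2a12, a transporter of heart and muscle, had a difference of 0.31 (adjusted p 0.454 in limma). The neuronal enolase Eno2 differed by 0.26 (0.404) by 1 probe and by 0.0028 by the other, and Gpd1l, a glycerol 3-phosphate dehydrogenase-like enzyme, by -0.30 (0.461). In glycogen metabolism, Phkb, the β subunit of phosphorylase kinase, differed by -0.20 (0.383) and Pgm2l1, a glucose 1,6-bisphosphate synthase, by 0.28 (0.395) in 1 of 3 tested probes. The other 2 probes of Pgm2l1 differed by 0.11 and 0.00028. Gfpt2, of the hexosamine pathway, differed by 0.47 (0.469). These genes were named for their small p and are not a set that passed a test.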

How the data were processed

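The deposited scanner files hold spot intensity values, processed with Agilent Feature Extraction 10.7.1.1 to a background-subtracted and spatially detrended signal, per the file headers, with no scaling between arrays. A deposited table of the series gives 20000 probes in natural log, as judged against the scanner values (slopes of 0.986 to 1.06). Its scaling between arrays is not given, and it served as an alternative. Here log2 of the processed signal minus the array's 75th percentile (760 to 909 in intensity) was averaged over the spots of a probe and over the labelings of a rat. Detection on an array means that a share of at least 0.5 of a probe's spots was well above background, and the 17587 probes detected in 4 or more of 9 rats were fitted with lmFit and eBayes of limma 3.58.1 (R 4.3.3, with the package data.table, version 1.17.8), with group as the term and Benjamini-Hochberg adjustment at 0.05. Named single values were also given an exact permutation test, two-sided, over all splits of the rats into 4 and 5. The members and gene lists were chosen with earlier results of these data known. Every member was described. Values of each rat were given for both isoforms of each pair and for the 4 genes of smallest p in each direction, with tests for those 8, and for other pathway genes up to 2 per direction and list. Some results that met this rule, and a further probe, are not reported here. The code was tested on simulated data. Between 55.2% and 67.8% of spots were well above background, and 0 were saturated. Nothing in the labels beyond the separate rats says how tissue was sampled, and the number of arrays limits the precision. Plots used Python 3.11.15 with pandas 2.3.3, numpy 2.4.6 and matplotlib 3.10.9.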

Additional observations from a re-analysis of the deposited data

Results flagged for a closer look

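Of 82 groups of rats (4 WT or 5 overexpressing rats for each tested member probe), 2 held a rat far from the others by Dixon's criterion, or 2.44%, where chance gives about 1 in 20. Aldoa read a level of 5.737 in overexpressing rat 3, and 5.619 to 5.653 in the other overexpressing rats. Pgk1 read a level of 6.724 in WT rat 3, and 6.865 to 6.876 in the other WT rats. WT 3 was the lowest WT rat in 25 of the 41 tested member probes, against 8 for WT 1, 3 for WT 4 and 5 for WT 6. These 25 include the 3 Eno1 probes, and without WT 3 the Eno1 differences were 0.29 (A_64_P039081), 0.22 (A_64_P093037) and 0.25 (A_64_P067525).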

How the results depend on the processing

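No member probe passed the threshold under any of the 24 alternatives (smallest adjusted p in limma 0.208 to 0.927). The signs of the 41 member probes moved from 20 higher and 21 lower to 12 lower with arrays scaled on their median. The Pfkfb2 probe A_44_P344415 turned to -0.21 when the brightest probe stood for the gene, which is its other probe, and to -0.0269 with slide as a block. Pkm A_64_P024077 turned to 0.0202 by the same change of probe. The lactate dehydrogenase isoform shift was 0.0268 with normexp and quantile normalization.

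Over all probes, 1 (Ak1) passed as reported. The count was 2 with normexp and quantile normalization, 2 with scan day as a block, 0 with slide as a block and 6 with trended and robust variance. The fits with slide or scan day as a block used all 13 arrays. In them each repeat hybridization was joined to the rat of the array of its group with the smallest SD of the log2 difference. Leaving out 1 rat gave 0 to 14 (14 without overexpressing 3, 2 without WT 1 or overexpressing 5, and 0 without WT 3, 4 or 6 or overexpressing 6 or 7). The heart numbers 1, 3 and 6 occur in both groups; rats of the same number correlated at 0.12, 0.04 and 0.12 in their deviations. Each of these WT rats correlated best with the overexpressing rat of its own number, and whether this reflects pairs was not tested. The labels state no pairs, and for that reason the numbers are not taken as pairs. Heart 1 of both groups lay on slide 1, while hearts 3 and hearts 6 of the groups lay on different slides. With heart number as a replicate block in these 6 rats the count was 0, as it was without the block. The smallest adjusted p in limma was 0.486 with that block and 0.0781 without it. Among probes with unadjusted p under 0.05, 33.9% were higher, against 63.2% when arrays were scaled on the median, 56.2% after quantile normalization (56.0% with normexp before it), 25.4% for normexp and the 75th percentile and 35.2% in the authors' values, and the median of all probes moved by less than 0.1.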

Other observations

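Around Eno1 on chromosome 5, the 24 tested probes of other features within 1000 kb on either side had differences of -0.39 to 0.31 and none passed the threshold (smallest adjusted p in limma 0.52). The nearest other feature, probe A_64_P010015 with no gene name in the files, read -2.49, -2.97, -2.89 and -2.96 in the WT rats and -3.07, -3.10, -3.41, -3.06 and -3.0002 in the overexpressing rats. It was the 1 probe of the 24 in which the groups did not overlap, as in 3.44% of all probes, with every overexpressing rat below every WT rat. The difference was -0.30 (adjusted p 0.52 in limma, and p = 0.00794 in the exact two-sided permutation test). H6pd, the endoplasmic reticulum enzyme of the first steps of the pentose phosphate route, differed by 0.23 and -0.05 in its 2 probes. The Ube4b probe A_64_P048820, chosen after its values were seen, read -3.57, -3.35 and -3.41 in overexpressing rats 5, 6 and 7, and -3.24 to -3.02 in the other rats, so the rats that were highest in Eno1 were the lowest there. The other 2 probes of Ube4b did not separate these rats.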
